A study of Mus musculus with 14 samples.

Results

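The comparison of BMAd-Pnpla2-/- with BMAd-Pnpla2+/+ mice under calorie restriction (CR) was made on bulk RNA sequencing of distal tibial marrow. It used the 3 libraries labelled BMAd-Pnpla2-/- CR and the 4 labelled BMAd-Pnpla2+/+ CR, 7 of the 14 libraries sequenced, chosen by these labels alone. The other 7 libraries came from mice of both genotypes fed ad libitum (AL). Every sample was the marrow plug tissue of 2 pooled male mice aged 24 weeks on a C57BL6/SJL background, and CR meant 30% less food for 6 weeks. The comparison asks what the marrow transcribed differently when bone marrow adipocytes could not use adipose triglyceride lipase while food was short. Mice of both genotypes carried the Osterix-FLPo transgene and the FLPo-activated Adipoq-Cre (FAC) allele, so the controls differed only in having no floxed Pnpla2. FAC places an IRES-Cre cassette in the 3′ end of Adipoq, and Cre acted in bone marrow adipocytes and a small subset of stromal cells. Cre expression from this allele is low, but the paper found recombination in most bone marrow adipocytes of mice of this age. It also found much less ATGL protein in the bones of -/- mice. Some bone marrow adipocytes may still keep an intact Pnpla2, as the paper names incomplete deletion as possible. Since the samples were whole marrow, fewer cells of a type and less RNA per cell cannot be told apart in any value below.

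Pnpla2 encodes adipose triglyceride lipase (ATGL), which removes the first fatty acid from stored triglyceride. Hormone-sensitive lipase (Lipe) and monoglyceride lipase (Mgll) remove the others, Abhd5 (CGI-58) activates ATGL, G0s2 inhibits it, and perilipin 1 (Plin1) guards the lipid droplet surface. Bone marrow adipocytes share this machinery with white adipocytes, but they lie among blood-forming, bone-forming and vascular cells. The paper describes the marrow fat of the distal tibia, sampled here, as constitutive and mostly resistant to change. It names that of the proximal tibia and distal femur as the kind that expands when food is restricted. For its own CR mice it reports more marrow fat along the whole tibia. Between the genotypes under CR it found the volume of marrow fat and the size of its adipocytes comparable. Adipocyte numbers in the pooled plugs sequenced here are not given in the sources used here.

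The libraries of the 2 groups differed in how they were made, and this bears on every gene. Gene counts without regard to strand ran from 19082056 to 21665553 per library in +/+ CR and from 18898324 to 19210701 in -/- CR. On the first strand lay 50.1% to 50.5% of the strand-assigned gene counts in the 3 -/- CR libraries, and 4.30% to 4.62% in the other 11. The -/- CR libraries were therefore not stranded, and counts taken without strand were used for all samples. Genotype and library preparation cannot be told apart under CR. The log2 fold changes also followed the GC content of the transcripts. Over 17482 genes, Spearman's rho between GC content and the log2 fold change was -0.49 under CR and -0.07 between the genotypes fed AL (genes of the same libraries are not independent points, so this is a description). Across 10 bins of about equal size, from the lowest to the highest GC content, the median log2 fold change under CR went from 0.29 to -0.36. A smooth GC trend taken out of each library brought rho to -0.02, and values with this GC offset are given beside the results they touch. Replicate 4 of +/+ CR had adipocyte and erythroid levels nearer to the -/- CR libraries than to its own group, and values without it are given beside several genes and lists.

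**Figure D1:**
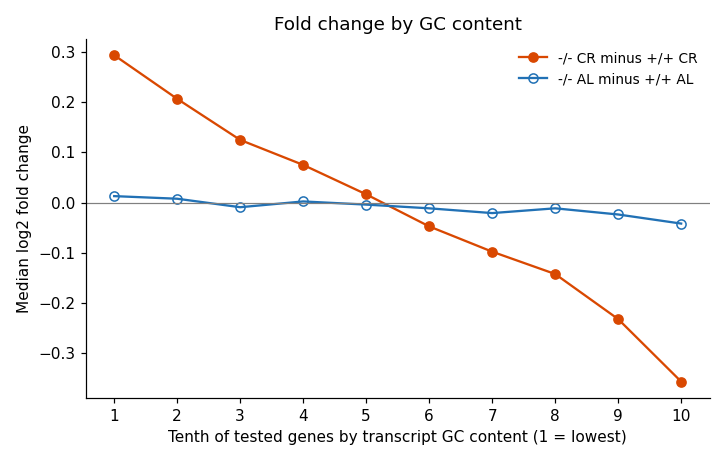
Median log2 fold change (y) of the tested genes in each of 10 bins of transcript GC content (x, 1 is the lowest), for -/- CR minus +/+ CR (filled) and -/- AL minus +/+ AL (open). The CR line falls from 0.29 to -0.36, while the AL line stays between 0.01 and -0.04.

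Of 17494 genes tested, 3 had an adjusted p under 0.05 between the genotypes under CR (0.0171% of genes tested; edgeR quasi-likelihood test, Benjamini-Hochberg). With an absolute log2 fold change over 1 as well, 2 genes were called (0.0114%). Both called genes, Pnpla2 and Zfp771, were lower in -/- CR, and the third gene, Ppib, was higher. The threshold lay at the edge of a large set of near ties, as the next smallest adjusted p was 0.0541 and 135 genes had one from 0.05 to 0.06. At the looser adjusted p under 0.10, chosen after these values were seen, 621 genes were higher (3.55%) and 512 lower (2.93%). Those 621 had a median GC content of 42.2% and those 512 one of 57.2%, against 49.6% for all genes tested. With the GC offset, 3 genes in all had an adjusted p under 0.10 (Ppib, Pnpla2 and Atp6v0c), so membership of the looser set is a description of these libraries, and the adjusted p with the offset is given beside genes of that set below. Unadjusted p fell under 0.05 for 4052 genes, 23.2% of those tested, against 3.97% between the genotypes fed AL. Without +/+ CR replicate 4, 410 genes were called and 2092 had an adjusted p under 0.05, and without +/+ CR replicate 3 the numbers were 17 and 256. Leaving out +/+ CR replicate 2 or any 1 of the -/- CR libraries called 0 (edgeR), with 2327 to 3760 genes at an unadjusted p under 0.05.

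Pnpla2 itself lies on chromosome 7 of GRCm38 (141455198 to 141460743, plus strand) with 9 exons in the GENCODE M21 coding transcript that holds the study's primers. The recombined allele lacks exons 2 to 7, which hold 871 of the 2625 transcript bases (33.2%) and 871 of the 1458 coding bases (59.7%). The other 1754 bases can still be transcribed from the recombined allele and count toward the gene, as does Pnpla2 RNA of cells that Cre did not reach. The study's primers mark the deleted stretch. They are printed 5′ to 3′ to show which part of the transcript the genotype removes.
Pnpla2 deletion PCR forward, exon 1: ccaacgccactcacatctacg
Pnpla2 deletion PCR reverse, exon 9: accccggggctcctctta
Pnpla2 quantitative PCR forward, exon 1: cggcttcctcggggtctac
Pnpla2 quantitative PCR reverse, exon 2: cgcgctcatggcaatcag
On this transcript the first pair spans 1425 bases, or 554 without exons 2 to 7, and the reverse primer of the second pair lies in a deleted exon. Exons are numbered here on this 1 transcript, and the deleted lengths and product sizes hold for it alone, since the transcript behind the study's numbering is not given in the sources used here. For the deletion PCR the paper gives a shorter wild-type product than the one here, and nearly the same product for the recombined allele. The deleted lengths and shares above may therefore differ from those of the study's transcript, and the reason was not settled. The codons of the lipase motif (glycine, any residue, serine, any residue, glycine) that holds the active-site serine at residue 47 lie in exon 1, at chr7:141455419-141455433 on the plus strand, and so outside the deleted exons; the serine codon is in capitals.
Pnpla2 lipase motif codons: ggagccTCGgcaggg

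Pnpla2 stood at 816, 1006, 1029 and 509 CPM (counts scaled to equal library totals) in the 4 +/+ CR libraries and at 180, 222 and 271 in the 3 -/- CR libraries. All 3 -/- values lay below all 4 +/+ values, including that of replicate 4, the lowest control. The group means were 840 ± 241 CPM (SD, n = 4) and 224 ± 45.5 CPM (SD, n = 3). Pnpla2 fell by 1.91 on the log2 scale (SE 0.26, adjusted p = 0.0387, edgeR), by 1.69 with the GC offset (adjusted p = 0.0309) and by 2.08 without +/+ CR replicate 4 (adjusted p = 0.00338). Leaving out the other 6 libraries one at a time kept the value between -2.06 and -1.77, but the adjusted p was above 0.05 in all of these cases except without +/+ CR replicate 3 (0.0252). It was 0.0747 and 0.0655 without +/+ CR replicates 1 and 2, and 0.220, 0.121 and 0.0918 without -/- CR replicates 1, 2 and 3. The -/- CR values lay within the range of the 7 AL libraries, 133 to 305 CPM.

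The drop in Pnpla2 was larger than that of nearly every other adipocyte gene. Of 99 genes tested on the 6 adipocyte lists (lipolysis, de novo lipogenesis, triglyceride synthesis, fatty acid uptake, adipogenic transcription factors, adipokines and adipocyte surface genes), 2 had a more negative log2 fold change, Cidea (-2.51) and Fasn (-2.06). Measured against the mean of the other 98, Pnpla2 stood 3.68 to 3.96 higher in the 4 +/+ CR libraries, on the scale of log2(CPM + 1), and 2.44 to 2.62 higher in the 3 -/- CR libraries. On this measure +/+ CR replicate 4 (3.68) lay near its own group. The AL libraries lay between these groups, at 2.78 to 3.08 in +/+ and 2.65 to 2.76 in -/-. These relative levels are given with no test.

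**Figure D2:**
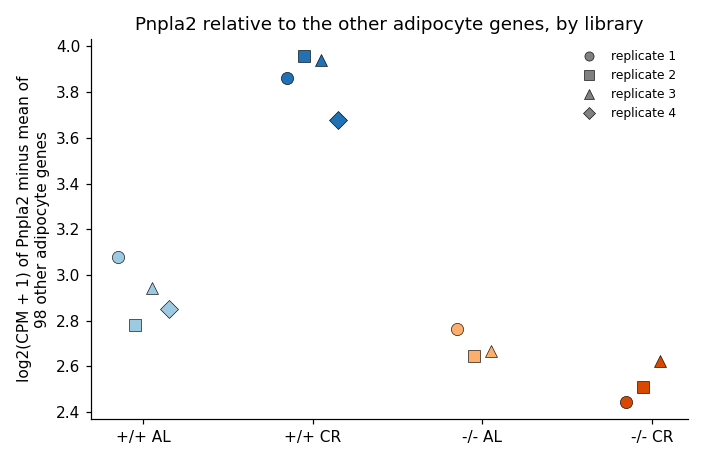
Pnpla2 minus the mean of the 98 other adipocyte genes (y, log2(CPM + 1)) in each of the 14 libraries by group (x; symbols mark replicates). The 4 +/+ CR libraries sit at 3.68 to 3.96, and the 3 -/- CR libraries at 2.44 to 2.62, the lowest group.

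Adipocyte transcripts as a whole were lower in the -/- CR libraries. Of the 99 genes, 87 were on the lower side and 12 on the higher side in -/- CR, and their median log2 fold change was -0.61, against -0.01 over all genes tested. In 20 genes every -/- CR value lay below every +/+ CR value, a separation seen in 8.11% of all genes tested, and in 2 every value lay above, a separation seen in 8.68%. At adjusted p under 0.10, 20 were lower and 2 higher, where 2.93% and 3.55% of all genes tested were, but with the GC offset Pnpla2 was the 1 gene left, although the median stayed at -0.57 and 87 genes were still negative. Without +/+ CR replicate 4 the median was -0.78, but this control had the lowest adipocyte levels, so its removal was bound to widen the difference. Other libraries left out moved the list medians both ways, and all stayed negative. Without -/- CR replicate 3, lipolysis and adipokines went to -0.94 and -0.93. The weakest medians came from the fits that follow. Lipolysis and de novo lipogenesis went to -0.51 and -0.72 without +/+ CR replicate 3. Adipokines and transcription factors went to -0.50 each without +/+ CR replicate 2. Triglyceride synthesis and fatty acid uptake went to -0.38 and -0.34 without -/- CR replicate 1. The direction was thus the same in these fits and with the GC offset, while single genes mostly did not pass a test with the offset.

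Among the 20 genes of lipolysis, 17 were lower, with a median log2 fold change of -0.61 and -0.46 with the GC offset. Plin1 stood at 408, 642, 553 and 190 CPM in +/+ CR and at 122, 222 and 221 in -/- CR, so the groups overlapped through replicate 4 (log2 fold change -1.25, SE 0.49, adjusted p = 0.157). Lipe was at 227, 323, 347 and 150 CPM against 98, 147 and 180 (log2 fold change -0.89, adjusted p = 0.161). Both genes thus had 3 high controls and 1 control inside the -/- range. G0s2, the ATGL inhibitor, did separate the groups, with 55.8, 65.6, 68.0 and 31.8 CPM against 23.6, 26.8 and 30.1 (log2 fold change -1.04, SE 0.24, adjusted p = 0.0636, and 0.203 with the GC offset). Mgll had a log2 fold change of -0.57 (adjusted p = 0.0818, and 0.297 with the GC offset), and the droplet proteins Cidec and Plin4 had -1.16 and -1.26 (adjusted p = 0.184 and 0.157). The ATGL activator Abhd5, made in many cell types, stood at 73.7 to 87.6 CPM in +/+ CR and 74.0 to 80.3 in -/- CR, a log2 fold change of -0.06 (SE 0.10). The ATGL paralogue Pnpla3 separated the groups at a low level, 10.6 to 25.7 CPM against 2.08 to 6.61 (adjusted p = 0.111).

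De novo lipogenesis, the making of fatty acids from citrate-derived acetyl-CoA, had the lowest median of the 36 lists, -0.98 over 16 genes, 14 of them lower (-0.88 with the GC offset). Fatty acid synthase (Fasn) stood at 1586, 749, 1256 and 451 CPM in +/+ CR and at 154, 220 and 353 in -/- CR, with no overlap (log2 fold change -2.06, SE 0.49, adjusted p = 0.0636, and 0.203 with the GC offset). Its partner acetyl-CoA carboxylase (Acaca) was at 237, 168, 277 and 99.9 CPM against 71.2, 89.1 and 122, overlapping through replicate 4 (log2 fold change -1.05, adjusted p = 0.104). The citrate carrier Slc25a1 was at 58.1 to 102 CPM against 39.6 to 53.8, again with no overlap (log2 fold change -0.89, adjusted p = 0.0544, and 0.203 with the GC offset). The desaturase Scd1 ranged from 6608 to 21410 CPM in +/+ CR and from 4633 to 9047 in -/- CR (log2 fold change -1.0, adjusted p = 0.251). Acly, which supplies the acetyl-CoA, moved least among these enzymes, at 191 to 225 CPM against 178 to 194 (log2 fold change -0.13).

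Triglyceride synthesis had a median of -0.58 over 16 genes, 14 of them lower. Agpat2, an acyltransferase, and Bscl2, the droplet protein seipin, are both genes whose loss causes congenital lipodystrophy. Agpat2 stood at 224, 163, 193 and 142 CPM in +/+ CR and at 109, 94.9 and 110 in -/- CR, and Bscl2 at 138, 140, 147 and 112 against 78.7, 91.4 and 91.9. Neither gene overlapped between the groups, and both had an adjusted p of 0.0541 (log2 fold change -0.78 and -0.62), which became 0.218 and 0.130 with the GC offset. Dgat2, which adds the last fatty acid, was at 138, 142 and 147 CPM in 3 controls and at 84.7 in replicate 4, beside 85.6, 70.2 and 89.2 in -/- CR (log2 fold change -0.65, adjusted p = 0.0873, and 0.305 with the GC offset). Glycerol kinase (Gk) was on the other side, from 10 to 15 CPM in +/+ CR to 17.6 to 24.3 in -/- CR (log2 fold change 0.60, adjusted p = 0.0713, and 0.319 with the GC offset).

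Fatty acid uptake had a median of -0.46 over 15 genes, 12 of them lower. Lipoprotein lipase (Lpl) ranged from 642 to 1826 CPM in +/+ CR and from 600 to 915 in -/- CR, and the fatty acid binding protein Fabp4 from 622 to 1337 against 391 to 641, and in both genes the groups overlapped (log2 fold change -0.90 for each, adjusted p = 0.145 and 0.123). The acyl-CoA synthetases of this list did not share a direction. Acsl1, the main form of adipocytes, was lower (490 to 670 CPM against 393 to 434, log2 fold change -0.54) and Acsl4 higher (33.7 to 41.3 against 48.5 to 58.1, log2 fold change 0.50), each with no overlap and an adjusted p of 0.06, which became 0.130 and 0.352 with the GC offset. The transporter Cd36, also carried by endothelial cells and macrophages, had a log2 fold change of -0.34 (adjusted p = 0.453).

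The adipogenic transcription factors had a median of -0.64 over 16 genes, 15 of them lower. Cebpa, which also acts in myeloid cells, stood at 391, 523, 429 and 216 CPM in +/+ CR and at 156, 203 and 228 in -/- CR (log2 fold change -0.99, adjusted p = 0.0755, and 0.258 with the GC offset). Pparg was at 89.3, 96.9, 106 and 53.8 CPM against 39.3, 65.9 and 64.9 (log2 fold change -0.61, adjusted p = 0.202). In both genes the first 3 controls lay above all -/- libraries and replicate 4 lay among them or just beside them.

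Adipokines and adipocyte surface genes had a median of -0.68 over 17 genes, 16 of them lower. Resistin (Retn) stood at 70.3, 50.4, 71.1 and 31.7 CPM against 10.7, 19.2 and 25.9, with no overlap (log2 fold change -1.58, SE 0.38, adjusted p = 0.0646, and 0.203 with the GC offset). Adipsin (Cfd) also separated the groups, at 1622, 2049, 1837 and 760 CPM against 444, 660 and 718 (log2 fold change -1.37, adjusted p = 0.127). Adiponectin (Adipoq), whose locus holds the FAC cassette in both genotypes, did not: it was at 66.7, 227, 83.9 and 31.4 CPM against 80.5, 33.0 and 49.7 (log2 fold change -0.91, SE 0.54, adjusted p = 0.330). Among the adipokines leptin (Lep) overlapped as well, at 16.6 to 52.0 CPM against 11.5 to 28.1. Fatty acid oxidation, used by many cell types, had a smaller median of -0.24 over 24 genes, 16 of them lower. Its member Cpt2, the inner membrane carnitine transferase, was at 45.5 to 59.5 CPM in +/+ CR and 39.9 to 43.2 in -/- CR (log2 fold change -0.37, adjusted p = 0.0937, and 0.275 with the GC offset).

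**Figure D3:**
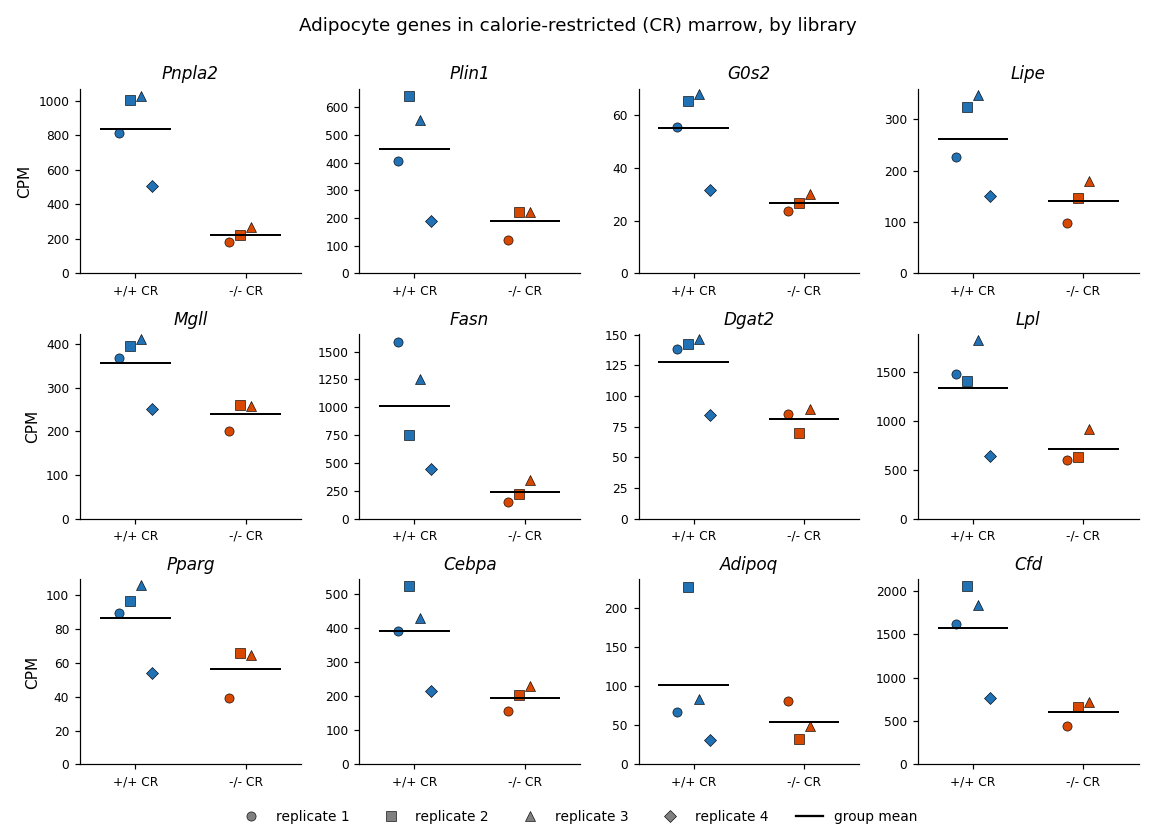
CPM (y, linear from 0) of 12 adipocyte genes in the 4 +/+ CR and 3 -/- CR libraries (x; symbols mark replicates, lines the group means). In Pnpla2, G0s2, Fasn and Cfd the groups do not overlap; in Plin1, Lipe, Dgat2, Pparg and Cebpa replicate 4 of +/+ CR lies in or near the -/- range.

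Outside the adipocyte lists, Ppib and Zfp771 had an adjusted p under 0.05. Ppib is a prolyl isomerase of the endoplasmic reticulum also known as cyclophilin B. In counts without strand it stood at 28.7, 20.9, 23.7 and 26.4 CPM in +/+ CR and at 50.6, 47.5 and 48.1 in -/- CR. Its log2 fold change was 0.97 (SE 0.11, edgeR adjusted p = 0.0126). Its locus (chromosome 9, 66060222 to 66066623) overlaps Snx22 on the other strand. In the 4 +/+ CR libraries the count without strand held 23.4% as many reads as the count on the strand of Ppib. The higher level in -/- CR thus rests on the part of the gene outside the overlap. Summed over the libraries of each group, counts on the reverse and first strand were 8838 and 1176 in +/+ CR. In -/- CR they were 3572 and 5237. With 83.7% of its strand-assigned counts on the reverse strand in the stranded libraries, Ppib lay under the 90% needed for the strand filter. Whether the whole gene differed was not tested. Zfp771, a zinc finger gene on chromosome 7, fell from 27.9, 37.9, 25.1 and 24.3 CPM to 14.1, 15.5 and 12.8 (log2 fold change -1.03, SE 0.15, adjusted p = 0.0493). Its transcript has a GC content of 68.7%, and with the GC offset its log2 fold change was -0.51 and its adjusted p 0.180.

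The rule for named genes filled the 12 places in each direction with 11 further higher and 10 further lower genes, all at an adjusted p of 0.0541. The higher ones were Mzt1 of the gamma-tubulin complex, the mitochondrial ATPase Atad1, Ptar1, Atxn7l3b, Med19 of the Mediator complex, the nucleotide-sugar transporter Slc35a3, Cnot7 of the deadenylase complex CCR4-NOT, the Golgi GTPase Rab6a, insulin-degrading enzyme (Ide), Coq10b and Matr3. Their log2 fold changes ran from 0.54 for Atad1 to 0.97 for Mzt1, which was at 30.3, 22.3, 29.8 and 37.5 CPM against 64.8, 58.4 and 52.5. Lower were Tmsb10, Ndufa6, Bri3, Ogfr, Ighv1-47, Sh2b2, Agpat2, Zfp523, Bscl2 and Lrrc45. The actin-binding thymosin Tmsb10 stood at 325, 440, 243 and 325 CPM against 169, 170 and 143, with log2 fold changes of -1.05 and, with the GC offset, -0.76. The immunoglobulin segment Ighv1-47, one of a family of similar sequences, stood at 1.92 to 6.72 CPM against 0.497 to 0.854 (log2 fold change -2.57). With the GC offset none of these 21 genes had an adjusted p under 0.05 (edgeR), and it was 0.130 for Mzt1 and for Tmsb10.

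Matrix and vascular lists had negative medians as well. Over the 37 collagen chains tested the median was -0.64 on the log2 scale (-0.40 with the GC offset), 32 of them lower, and the 30 genes of collagen processing and matrix proteases one of -0.45 (-0.29), 26 of them lower. The collagen median was -0.83 without +/+ CR replicate 4 and -0.31 without replicate 2, and that of collagen processing was -0.22 without replicate 2. Col4a1, a basement membrane chain, was at 423, 634, 528 and 228 CPM in +/+ CR and at 183, 229 and 232 in -/- CR (log2 fold change -1.08, adjusted p = 0.0849, and 0.260 with the GC offset), and the microfibril chain Col6a2 at 195, 387, 210 and 115 against 107, 112 and 93.3 (log2 fold change -1.13, adjusted p = 0.0871, and 0.260 with the GC offset). Bone-type collagen spread far more among the controls. Col1a1 stood at 3066, 2316, 618 and 495 CPM in +/+ CR, and its -/- CR values of 1133, 670 and 910 lay within that range (log2 fold change -0.84, SE 0.65, adjusted p = 0.452). Osteoblast and osteocyte genes had a median of -0.40 over 21 genes (15 lower), with a summed level of 2524 to 7970 CPM against 3658 to 3993, and osteoclast genes one of -0.37 over 17 (14 lower), with 2596 to 5277 against 3602 to 4374. In both bone lists the -/- range lay inside the +/+ range. Without +/+ CR replicate 2, the library highest in both, the osteoblast median was -0.13 and the osteoclast median turned to 0.09.

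All 18 endothelial genes tested were lower, with a median of -0.52 (-0.40 with the GC offset), which was -0.70 without +/+ CR replicate 4 and -0.33 without replicate 2. Madcam1, an adhesion receptor for lymphocytes, stood at 10.9, 14, 11.3 and 6.95 CPM against 1.17, 4.48 and 3.08 (log2 fold change -1.89, SE 0.49, adjusted p = 0.0738, and 0.241 with the GC offset). The vascular cadherin Cdh5 was at 134, 211, 170 and 97.6 CPM against 80.8, 107 and 108 (log2 fold change -0.63, adjusted p = 0.161). Summed endothelial levels reached 3308 CPM in +/+ CR and 1797 in -/- CR, but started from 1568 and 1396, so they overlapped. The stromal niche genes had a median of -0.15 over 20 genes (14 lower), which turned to 0.05 without +/+ CR replicate 2 and to 0.01 with limma, so no direction is given for them. Kit ligand (Kitl), the leptin receptor (Lepr), Cxcl12 and Il7, which mark the cells that feed blood precursors, had log2 fold changes of 0.09, 0.07, -0.19 and -0.08 with SEs of 0.22 to 0.26.

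Blood cell lists split by lineage. All 20 erythroid genes tested were higher in -/- CR, their median being 0.76 on the log2 scale (0.72 with the GC offset). This median was 0.45 without +/+ CR replicate 3 and 1.19 without +/+ CR replicate 4. Without replicate 4, 11 genes were higher at adjusted p under 0.10 in place of 1. Of all 17494 genes tested, 2114 were then higher at that threshold, in place of 621. Replicate 4 was the control highest in erythroid genes, so its removal was bound to widen the difference. The beta-globin Hbb-bs stood at 8998, 1921, 2644 and 10750 CPM in +/+ CR and at 15730, 20350 and 11170 in -/- CR (log2 fold change 1.37, SE 0.48, adjusted p = 0.128), and the transferrin receptor Tfrc at 224, 108, 131 and 392 against 605, 474 and 367 (log2 fold change 1.17, adjusted p = 0.115). The globin copies are near identical, so reads between them may be split or lost. The controls fell into 2 low libraries, replicates 2 and 3, and 2 that reached toward the -/- CR levels. Summed erythroid levels were 11720 to 56430 CPM in +/+ CR and 33600 to 56760 in -/- CR. All 32 genes of DNA replication and mitosis were also higher, with a median of 0.50 (0.47 with the GC offset), at a summed 2475 to 6759 CPM against 4544 to 6920. Without +/+ CR replicate 4, again the highest control, 22 of the 32 had an adjusted p under 0.10 in place of 0, beside the 2114 of all genes tested. The median of the 32 was 0.79 without that library and 0.34 without replicate 3. Of these genes, Kif11, a mitotic kinesin, had a log2 fold change of 0.79 (adjusted p = 0.150) and Mki67 one of 0.21 (adjusted p = 0.759).

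Across the adipocyte, erythroid and replication lists the same control libraries were at the extremes. Replicates 2 and 3 of +/+ CR had the highest summed levels of lipolysis genes and the lowest of erythroid and replication genes, and replicate 4 had the reverse. Levels in CPM are shares of a library, so a larger share for one cell type lowers the others. What part these shares had in each single gene was not tested.

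Myeloid lists had medians from 0.02 to 0.30. Neutrophil primary granule genes had a median of 0.04 over 10 genes (6 higher), those of secondary and tertiary granules 0.19 over 13 (11 higher), and mature neutrophil genes 0.30 over 19 (16 higher). With the GC offset these were 0.19, 0.20 and 0.15, so no order by stage is read from them. Monocyte and macrophage genes had 0.21 over 20 (12 higher), eosinophil, basophil and mast cell genes 0.23 over 17 (12 higher) and megakaryocyte genes 0.02 over 15 (10 higher). With the offset these 3 lists had 0.13, 0.11 and 0.23. The chemokine receptor Ccr2 of inflammatory monocytes did separate the groups, at 77.7, 92.7, 109 and 91.0 CPM against 205, 144 and 119 (log2 fold change 0.75, adjusted p = 0.0646, and 0.297 with the GC offset). Myeloperoxidase (Mpo) and neutrophil elastase (Elane) had log2 fold changes of -0.21 and 0.16 with SEs of 0.16 and 0.15. Stem and progenitor cell genes had a median of -0.01 over 20 (10 higher).

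Lymphoid lists leaned the other way. T and NK cell genes had a median of -0.20 over 21 genes, 16 of them lower, and 7, among them Trac and Zap70, lay lower with no overlap, as 8.11% of all genes tested did. The T cell receptor chain Trac was at 25.5, 35.7, 27.4 and 28.3 CPM against 18.2, 22.8 and 22.4 (log2 fold change -0.47, adjusted p = 0.124). In this list 1 gene lay higher with no overlap, as 8.68% of all genes tested did. The NK cell receptor Ncr1 was higher, at 5.86, 3.65, 5.68 and 6.90 CPM against 8.86, 8.31 and 7.61 (log2 fold change 0.58, edgeR adjusted p = 0.134). Between the genotypes fed AL the median of the T and NK list was 0.26, with 18 of 21 genes higher. Mature B and plasma cell genes had a median of -0.34 over 17, 16 of them lower, and pro-B and pre-B cell genes one of -0.31 over 15, 10 of them lower. The B cell precursor genes Rag1 and Igll1 were near 0 in all 7 libraries, at 0.135 to 1.23 and 0.249 to 1.65 CPM.

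Skeletal muscle genes had the highest median of the 36 lists, 1.23 over the 11 of 17 that could be tested, all of them higher. The summed level was 31.5 to 40.2 CPM in the 4 +/+ CR libraries, and 33.1, 70.4 and 196 CPM in -/- CR replicates 1, 2 and 3. Skeletal actin (Acta1) stood at 0.817, 0.694, 0.812 and 3.26 CPM against 1.07, 12.6 and 41.7 (log2 fold change 3.74, SE 1.09, adjusted p = 0.0873, and 0.241 with the GC offset), and the fast myosin Myh4 at 0 to 1.71 against 0.320, 6.34 and 28.1. The higher values came from 2 of the 3 -/- CR libraries. Of the 17 listed genes, 3 to 5 were at 0 counts in each +/+ CR library, and 3, 1 and 1 in -/- CR replicates 1, 2 and 3. The part of muscle RNA in other results was not tested gene by gene. Leaving the erythroid and muscle lists out of the counts altogether gave 2 called genes and a Pnpla2 log2 fold change of -1.91.

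**Figure D4:**
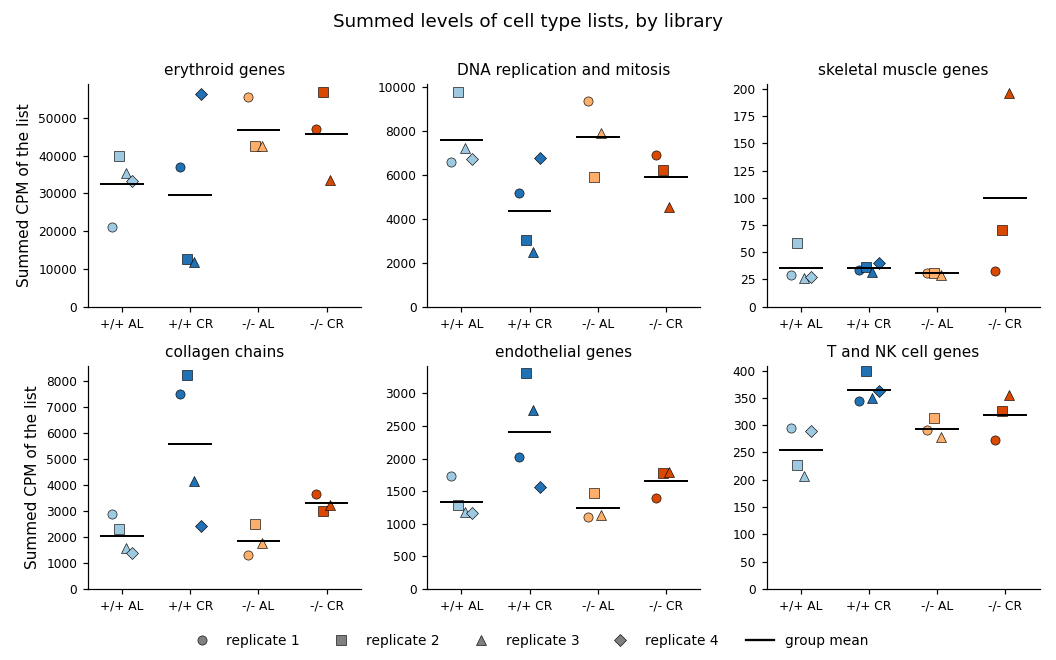
Summed CPM (y, linear from 0) of 6 gene lists in all 14 libraries by group (x; symbols mark replicates, lines the group means). Erythroid, collagen and replication genes spread widely among the 4 +/+ CR libraries, and muscle genes are high in -/- CR replicates 2 and 3, at 70.4 and 196 CPM.

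The 79 nuclear genes of oxidative phosphorylation had a median of 0.00, with 40 higher and 39 lower. Within them, Ndufa6 of complex I was at 60.0, 59.5, 48.1 and 48.6 CPM against 36.9, 36.4 and 32.7 (log2 fold change -0.61, adjusted p = 0.0541, and 0.130 with the GC offset) and Ndufc1 of the same complex at 5.41 to 8.48 against 9.64 to 12.0 (log2 fold change 0.59, adjusted p = 0.0818, and 0.301 with the GC offset). The 11 protein genes of the mitochondrial genome tested had a median of 0.29 (10 higher), but -0.01 with the GC offset and -0.04 without -/- CR replicate 2. Cytosolic ribosomal proteins had one of -0.03 over 84 genes (47 lower) and cholesterol synthesis and uptake -0.02 over 23 (12 lower). The monocarboxylate transporters, which carry lactate and ketone bodies, had 0.14 over 13 (9 higher). Among them Slc16a1 stood at 107, 51.4, 56.8 and 148 CPM against 192, 190 and 123 (log2 fold change 0.89, SE 0.35, adjusted p = 0.156), and Slc16a4 separated the groups at a low level, 1.92 to 3.42 against 3.63 to 5.92 (adjusted p = 0.0826, and 0.309 with the GC offset). Slc16a4 was also higher in -/- mice fed AL (log2 fold change 0.67, SE 0.24). Slc16a11, which the paper names beside Slc16a4 as further raised by the deletion, was on the lower side. Its log2 fold change ran from -1.13 to -0.29 with single CR libraries left out. It was 0.63 on the deposited matrix, which mixes strand settings between the groups, and that of Slc16a4 was 3.20 there.

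The signalling and stress lists had medians between -0.40 and 0.04. Immediate early genes had a median of -0.40 over 15 genes (13 lower), which became -0.19 with the GC offset. Glucocorticoid receptor targets had -0.14 over 15 (8 lower), nutrient stress and autophagy genes -0.09 over 22 (14 lower, median -0.01 with the offset), interferon-stimulated genes -0.20 over 26 (18 lower) and replication-dependent histone genes 0.04 over the 37 of 67 tested (17 lower). Fkbp5, a glucocorticoid receptor target, was at 239 to 298 CPM in +/+ CR and 167 to 264 in -/- CR (log2 fold change -0.36, adjusted p = 0.204).

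**Figure D5:**
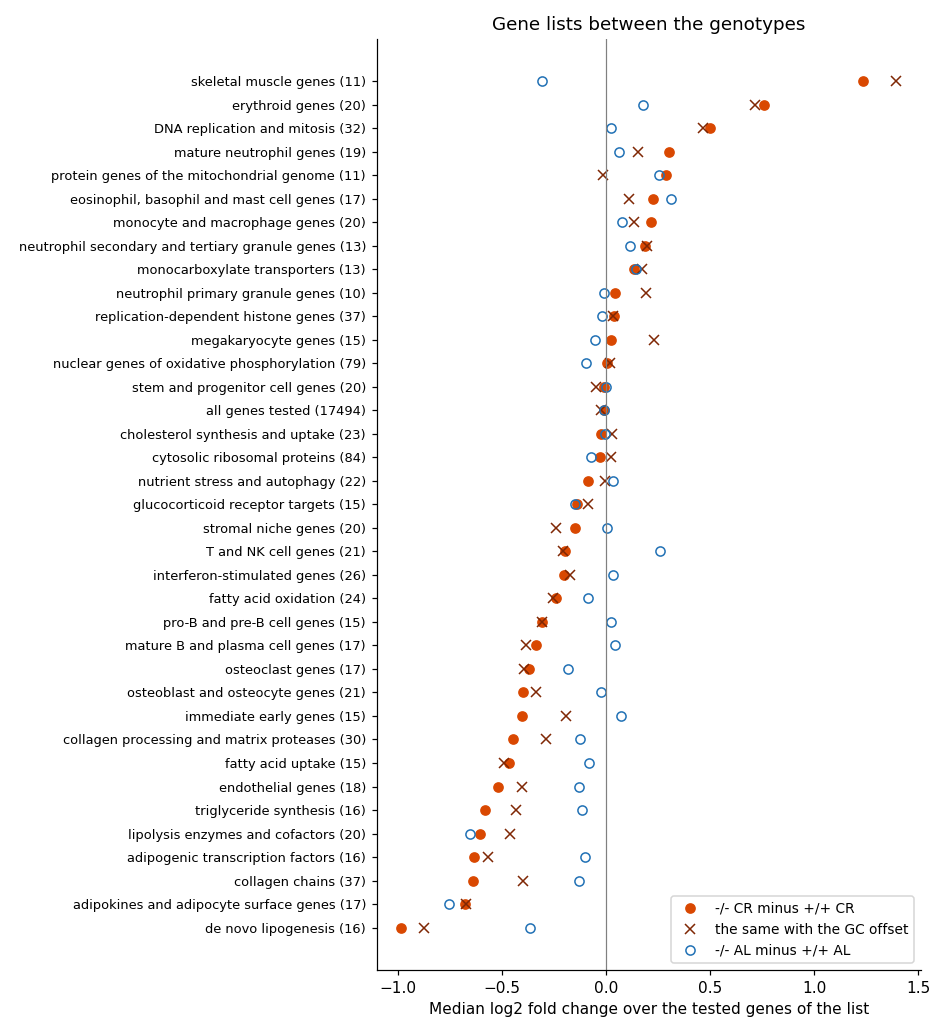
Median log2 fold change (x) of each of the 36 gene lists and of all genes tested (y, number of tested genes in brackets), for -/- CR minus +/+ CR, the same with the GC offset, and -/- AL minus +/+ AL. De novo lipogenesis is lowest at -0.98 and skeletal muscle highest at 1.23 under CR; the GC offset moves the mitochondrial genome list from 0.29 to -0.01.

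Beside the same contrast in AL mice, which shares no sample with it, the adipocyte lists did not all keep their place. Adipokines and lipolysis genes had AL medians of -0.76 and -0.66, near their CR values, while adipogenic transcription factors, triglyceride synthesis and fatty acid uptake had -0.10, -0.11 and -0.08. Collagen chains had -0.13, endothelial genes -0.13 and erythroid genes 0.18 under AL. Pnpla2 was at 305, 176, 202 and 192 CPM in +/+ AL and 137, 172 and 133 in -/- AL (log2 fold change -0.57, SE 0.25, adjusted p = 1.0). Between the genotypes fed AL 0 genes were called (0%), with 694 at an unadjusted p under 0.05, 13 called by DESeq2 and 1 by limma. For the interaction of genotype and diet edgeR gave 0 genes with an adjusted p under 0.05 (0%), 1824 at an unadjusted p under 0.05, with 65 called by DESeq2 and 0 by limma. The interaction of Pnpla2 was -1.34 on the log2 scale (SE 0.35, edgeR adjusted p = 0.337). This adjusted p, the smallest in that test, was a tie shared with many genes. Ppib, Bri3 and Madcam1 were among them, each with a smaller unadjusted p than Pnpla2. The lists were not tested for an interaction.

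Finally, 3 genes were read because the paper's text names them for these mice. Perm1 stood at 1.73 to 4.12 CPM in +/+ CR and 2.45 to 2.88 in -/- CR (log2 fold change -0.07, SE 0.28), B3gat2 at 0.865 to 1.39 against 1.09 to 2.40 (log2 fold change 0.34, SE 0.32) and mt-Nd6 at 617 to 833 against 440 to 734 (log2 fold change -0.42, SE 0.18, adjusted p = 0.180). All 3 overlapped between the groups. In the 11 stranded libraries 0.437% of the strand-assigned counts of mt-Nd6, 0.251% of those of B3gat2 and 37.7% of those of Perm1 lay on the reverse strand, where 99.3% of those of Pnpla2 lay. In +/+ CR the counts without strand of mt-Nd6, B3gat2 and Perm1 were 60617, 103 and 232, and those on the reverse strand 341, 9 and 65. The CPM above thus hold mostly reads of the other strand, and whether the 3 genes themselves differed was not tested. The deposited matrix holds reverse-strand counts for the 11 stranded libraries and counts without strand for the 3 -/- CR libraries. On it the same test gave log2 fold changes of 7.09 for mt-Nd6, 3.80 for B3gat2 and 1.77 for Perm1.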

How the data were processed

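The authors aligned read pairs to mm10 (GRCm38) with STAR and deposited, per sample, raw counts per gene without strand and on each strand, and 1 matrix of raw counts. FastQC 0.11.9, STAR and DESeq2 are named in the submitters' processing notes. Reads with several positions are in no count. RNA came from distal tibial marrow of 2 pooled mice per sample. The deposited counts without strand were used for all 14 samples, over the 23441 genes of the matrix, which gives the symbols (the per-sample files list 55401). Whether replicates are separate litters is not given in the sources used here, so p-values measure the spread between these pools.

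Libraries were scaled by TMM and genes filtered by filterByExpr on the 4 groups, which kept 17494. The quasi-likelihood test of edgeR 4.0.16 (R 4.3.3) used a robust fit of 1 model of 4 groups, two-sided, with Benjamini-Hochberg adjustment over all genes tested. A call needed an adjusted p under 0.05 together with a log2 fold change past 1 either way. SE was the log2 fold change over the square root of F. CPM used TMM library sizes. Positions, transcript GC content and overlaps came from GENCODE M21. The GC offset, a lowess curve (span 0.3) per library, the adjusted p under 0.10, the fit over all genes of the per-sample files and the fit without erythroid and muscle genes were added after seeing the data. The deposited matrix copies reverse-strand counts for 11 samples and counts without strand for the 3 -/- CR samples, and is an alternative only.

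Named genes were Pnpla2, called genes, 12 in each direction that averaged 50 counts or more without overlap (filled by unadjusted p at an absolute log2 fold change over 0.5), marker genes of each list, and Perm1, mt-Nd6 and B3gat2, 131 in all. Cidea, Plin4, Pnpla3, Slc25a1, Acly, Gk, Acsl1, Acsl4, Retn, Cpt2, Ndufc1, Col6a2, Kif11, Trac, Zap70, Myh4 and Atp6v0c fall outside the rule and were chosen after their values were seen. Genes, lists and comparison were chosen with earlier results of these data known. Lists are described by counts and medians, with no set test. Within each CR group no pair of libraries was near identical (the AL libraries were not compared so). On simulated counts for this comparison (17044 genes run), the test recovered 90.9% of genes changed 4-fold, 71.6% of 2-fold and 25.4% of 1.5-fold. The simulated counts were drawn for each gene alone, and the changed genes were not taken from the lowest levels. Unlike the real libraries, they held no GC trend, no strand difference and no shift shared by many genes. The recovered shares thus hold for such counts and not for the real comparison. DESeq2 1.42.0, limma 3.58.1 and other settings were tried.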

Additional observations from a re-analysis of the deposited data

Results flagged for a closer look

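Among the 4 +/+ CR libraries, 167 named genes and list sums were checked for a library far from the rest, and 11 stood out. Chance alone gives about 5% of such items, and 11 of 167 lies near that share. The items also share libraries and genes, so the 11 are listed as a description. Replicate 4 was apart in Acta1 (3.26 CPM against 0.694 to 0.817 in the others), Dgat2 (84.7 against 138 to 147), Sqle (25.2 against 18.2 to 18.8), Il7r (69.4 against 47.5 to 50.8) and the summed triglyceride synthesis genes (1200 against 1660 to 1745). Replicate 2 was apart in Egr1 (32.1 CPM against 16.8 to 19.1), Acp5 (666 against 145 to 200), Ctsk (508 against 64.4 to 122) and the summed genes of collagen processing and matrix proteases (6232 against 3529 to 3981). Acp5 and Ctsk are both osteoclast genes. Replicate 3 was apart in Jchain (3017 CPM against 965 to 1262) and replicate 1 in B3gat2 (0.865 against 1.31 to 1.39).

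Counts by strand, which the main test does not use, set the -/- CR libraries apart from all others. The first strand held 50.1%, 50.5% and 50.1% of the strand-assigned gene counts in their replicates 1, 2 and 3, and 4.30% to 4.62% in the other 11 libraries.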

How the results depend on the processing

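In place of 2 called genes, DESeq2 gave 91, limma voom with quality weights 96, a filter of 50 mean counts 12 and the deposited matrix 1056. Called genes numbered 1 with the GC offset, 1 over all genes of the per-sample files, and 0 with the 7 CR samples alone, with genes at least 90% on the reverse strand and with glmTreat. Leaving out 1 library each gave 0 to 410, the highest without +/+ CR replicate 4. For an adjusted p under 0.05, in place of 3 genes, the 7 CR samples gave 0, DESeq2 1617, the matrix 2451, the strand filter 0, limma 882, the 50-count filter 165, total counts 8, and single libraries left out 0 to 2092. The matrix mixes strand settings between the groups, and the causes of the other shifts were not tested. For an unadjusted p under 0.05, in place of 4052 genes, the GC offset gave 2344 and single libraries left out 2327 to 5487. Pnpla2 was negative under all settings, but its adjusted p was above 0.05 with the 7 CR samples (-1.90, adjusted p = 0.208) and the strand filter (-1.89, adjusted p = 0.0548), and ran from -2.08 to -1.77 with single libraries left out. The interaction and AL counts of 0 became 65 and 13 with DESeq2, 678 interaction genes with the matrix and 1 AL gene with limma. The 7 CR samples alone give no AL or interaction value. Only the matrix turned a direction past the threshold, for Ppib (-1.10), mt-Nd6 (7.09) and Perm1 (1.77). The adipocyte, collagen, endothelial, erythroid, replication and muscle medians kept their sign under every setting run.

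Replicate numbers were not shown to pair the samples. Deviations of same-numbered libraries from their group means correlated at 0.230, 0.075 and 0.281, and not every library correlated best with its own number. With the replicate block, 2 genes were called, 2 had an adjusted p under 0.05, 4543 an unadjusted p under 0.05, and Pnpla2 was at -2.01 (adjusted p = 0.0427).

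List medians also moved with single libraries. Without +/+ CR replicate 2, those of osteoclast genes, stromal niche genes, pro-B and pre-B cell genes and histone genes were 0.09, 0.05, -0.08 and -0.10. Without +/+ CR replicate 3, that of megakaryocyte genes was -0.15. Leaving out -/- CR replicate 1 gave 2.26 for muscle, 0.09 for mature neutrophil, -0.12 for primary granule and 0.05 for glucocorticoid target genes, and leaving out -/- CR replicate 3 gave 0.78 for muscle, -0.94 for lipolysis and -0.08 for monocyte and macrophage genes. Medians of lists near 0 (oxidative phosphorylation, ribosomal proteins, cholesterol, stem and progenitor genes) changed sign under several settings, so no direction is read from them.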
